A study of Mus musculus with 8 samples.

Results

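The genes described here encode the machinery with which a presynaptic terminal stores, docks and releases neurotransmitter. They are 34 genes named for that role: SNARE proteins and their helpers, priming factors and calcium sensors, active zone scaffolds, and proteins of the vesicle membrane with 2 glutamate transporters. Each was found by its gene symbol among probes named through RefSeq accessions. Of the 34 genes, 32 could be tested, among 21116 genes or unnamed transcripts (features) tested in all.

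The series compared 4 samples labelled as carrying Flag-tagged Nr4a1 with 4 labelled as carrying GFP. Mouse hippocampal neurons, dissociated and cultured for 10 days, were infected with a lentivirus holding 1 of these transgenes and kept for 6 more days, so both groups carried a virus. Nr4a1 is an orphan nuclear receptor whose transcription follows neuronal activity, and the contrast asks which transcripts differ when neurons are given more of it. The promoter that drove the transgenes, the share of cells infected and the strain and age of the animals are not given in the sources used here. The labels' pair tags (1, 3, 4 and 5) each join the Nr4a1 and the GFP array of 1 replicate number, so the pairs are named here by replicates 1 to 4, and replicate 4 alone makes up batch 2. Nothing in the labels says that the 4 samples of a group came from separate cultures, so the p-values refer to variation among these arrays and that variation may be technical.

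In a nerve terminal, vesicles are filled with transmitter, tethered at the active zone and primed for fusion. Fusion is driven by SNARE proteins of the vesicle (synaptobrevins) and of the plasma membrane (syntaxin 1 and SNAP-25), which zip together, while complexins hold and promote the assembled complex and synaptotagmin triggers it on calcium. Munc13 proteins open syntaxin for assembly, RIM proteins and Rab3 recruit vesicles and calcium channels, and synapsins keep a reserve pool. In hippocampal neurons most excitatory terminals load glutamate with vesicular transporters of the SLC17 family.

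A level is the log2 of Cy5 over Cy3 on 1 array, with the culture's RNA in Cy5 and a common mouse reference RNA in Cy3. Each array had 44397 spots, its median Cy5 signal lay between 137 and 194, and 60.9% to 69.2% of spots were well above background in Cy5. The number of arrays limits the precision. All 4 GFP arrays lay on slide 1, Nr4a1 replicates 1 to 3 on slide 2 and Nr4a1 replicate 4 on slide 3, so no slide held both groups. On Nr4a1 replicate 2, 37 spots had a non-uniform local background, against 0 to 10 on the other arrays, and such spots were left out on every array. Nr4a1 itself has 1 probe (A_51_P239654), which read -1.32, -2.49, -1.20 and -2.37 on arrays labelled Nr4a1 and -2.06, -2.12, -1.90 and -2.49 on arrays labelled GFP. These ranges overlap, and the difference was 0.30 ± 0.15 (SE, n = 4 per group), with limma adjusted p = 0.193. Without replicate 2, whose pair alone was negative (-0.36), the difference was 0.52, with limma adjusted p = 0.00603. Leaving out replicate 1, 3 or 4 instead gave no call. Of 19 other ways of processing tried, Nr4a1 was called in 3, namely median centring and those that left out replicate 2. Whether this probe lies in the delivered sequence is not known, so the arrays are named by their labels throughout.

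Among the 32 tested genes, 8 were lower and 3 were higher in Nr4a1-labelled samples (limma, 2-sided, adjusted p under 0.05 over all 21116 features). That is 25% lower and 9.38% higher. Over all features 11.5% were lower and 12.8% were higher, and 24.4% were called in either direction, against 34.4% of the presynaptic genes. The 8 lower genes were Synpr, Stx1a, Cplx2, Vamp1, Erc2, Sv2a, Unc13a and Syt1, and the 3 higher genes were Unc13b, Slc17a6 and Rab3c. The median difference of the 32 genes was -0.13 on the log2 scale, beside -0.0035 for all features, and 22 genes lay below 0 and 10 above. Over all features 51% of differences lay below 0. In these bulk samples, fewer neurons with terminals and less RNA per cell cannot be told apart.

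Each of the 11 genes past the threshold differed in 1 direction in all 4 pairs, as did 17 of the 32 tested genes in total. The fit that called the 11 genes used these same pairs, so this is not separate evidence. The share of all features with 1 direction in all 4 pairs is not given here, so the 17 have no baseline. Counted by array, 7 genes had all 4 Nr4a1 arrays below all 4 GFP arrays and 3 had them above, while 22 overlapped. Over all features the shares were 11.7% below and 12.6% above. The number of genes lower in Nr4a1 was 21, 23, 25 and 19 of 32 in the pairs of replicates 1 to 4, and the median difference was -0.19, -0.14, -0.25 and -0.03. In the pair of replicate 4, the whole of batch 2, the median thus lay closest to 0. Over all features the medians in the 4 pairs were 0.012, -0.001, -0.023 and 0.013. Within batch 1 alone, which is the fit without replicate 4, 11 presynaptic genes were lower and 2 higher, beside 8.93% and 9.46% of all features. Batch 2 holds 1 array per group and gives no test of its own.

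**Figure D1:**
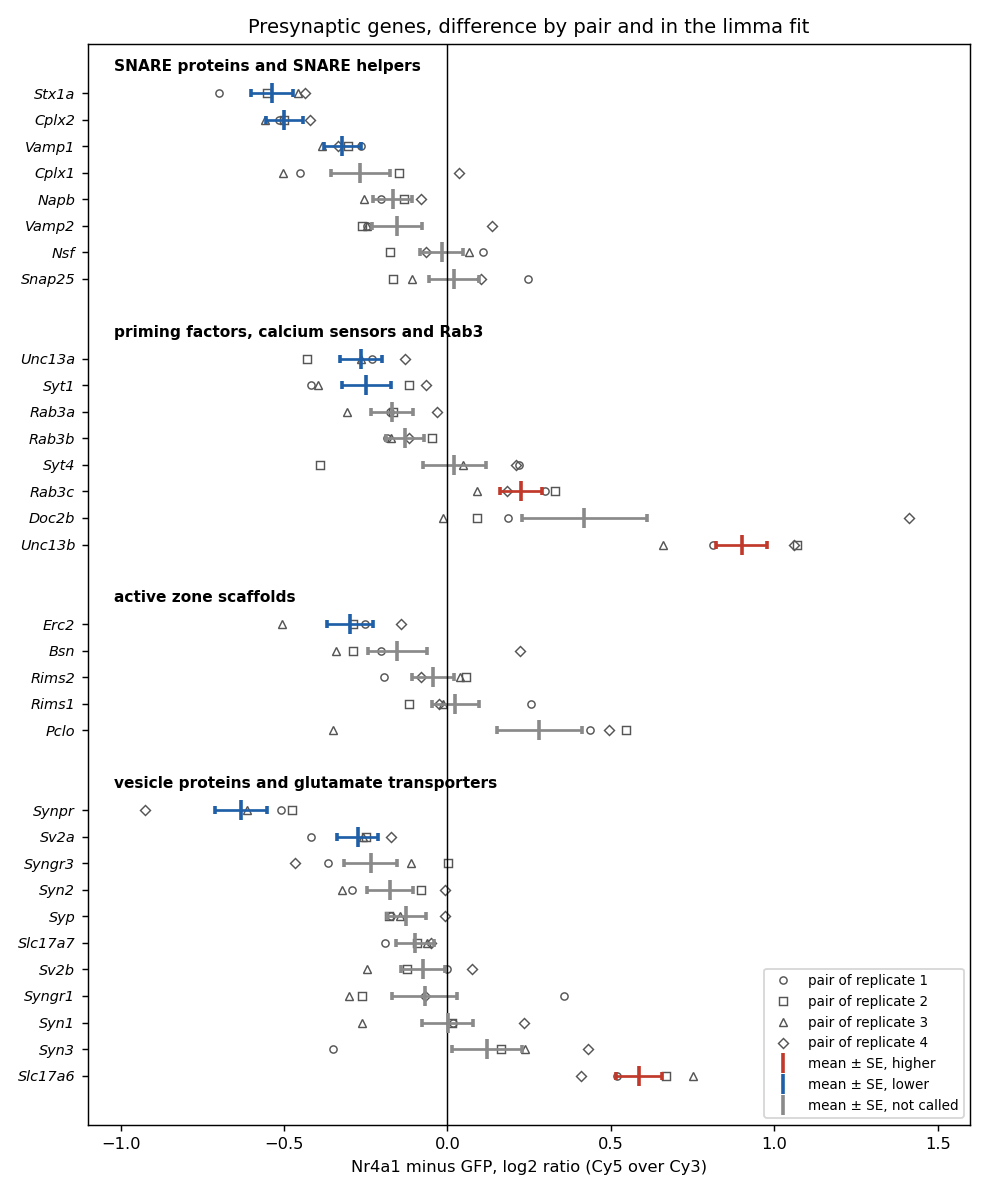
Difference between Nr4a1-labelled and GFP-labelled arrays for the 32 tested presynaptic genes, in 4 role groups; the x axis is the difference in log2 ratio, open symbols are the 4 pairs, and bars are the limma mean ± SE, red where higher, blue where lower and grey where not past the threshold. Unc13b lies farthest to the right at 0.90 and Synpr farthest to the left at -0.63, and the 4 pairs of Doc2b spread from -0.01 to 1.41.

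2 changes of processing end all 11 calls. With every spot kept in the background correction, 0 of the 32 genes passed limma's test (8 lower and 1 higher at unadjusted p under 0.05), and over all features 1.07% were called. When slide entered the fit as a random block, 0 genes passed (2 lower and 1 higher at unadjusted p under 0.05), and 8 features were higher and 4 lower over the whole array. Since no slide held both labels, slide and label cannot be told apart within a slide. Where a call is lost in any further setting, it is said beside the gene.

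The SNARE proteins and their helpers stood lower in Nr4a1-labelled samples in 3 of 8 genes, with none higher and 5 not past the threshold. The mean level of the 8 genes was 3.35 to 3.44 on Nr4a1 arrays and 3.58 to 3.71 on GFP arrays, and these ranges do not overlap. The median difference was -0.22, and 7 of 8 genes lay below 0. Mean levels also did not overlap for the 11 tested vesicle and transporter genes (3.91 to 3.99 on Nr4a1 arrays, 4.00 to 4.07 on GFP arrays). There the gap was narrow, 3.989 against 4.001. Nor did they overlap in a wider list given further on, of other synaptotagmins and Rab effectors (1.88 to 1.95 and 1.99 to 2.12). Mean levels overlapped in the priming and active zone groups and over all 32 genes (3.92 to 3.97 and 3.93 to 4.09). Stx1a encodes syntaxin 1A, the plasma membrane SNARE that Munc13 proteins open. Its level was 2.94, 2.91, 3.14 and 3.03 on Nr4a1 arrays and 3.64, 3.46, 3.60 and 3.47 on GFP arrays (probe A_51_P182728). Every Nr4a1 array lay below every GFP array, and Stx1a was 1.45-fold lower (log2 difference -0.54 ± 0.06, SE, n = 4 per group, limma adjusted p = 0.000280).

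Cplx2 encodes complexin 2, which binds the assembled SNARE complex. It was at 4.65, 4.56, 4.65 and 4.65 on Nr4a1 arrays and at 5.17, 5.06, 5.21 and 5.07 on GFP arrays (probe A_51_P485161), again without overlap. The gene was 1.41-fold lower (-0.50 ± 0.06, limma adjusted p = 0.000218). The other 3 Cplx2 probes were lower too, by -0.87 ± 0.07, -0.73 ± 0.07 and -0.34 ± 0.06. Its paralog Cplx1 was at 4.87, 4.93, 4.81 and 5.15 on Nr4a1 arrays and at 5.32, 5.08, 5.32 and 5.11 on GFP arrays. Nr4a1 replicate 4 lies above 2 of the GFP arrays, and the Cplx1 difference of -0.27 ± 0.09 missed the threshold (limma adjusted p = 0.0559). It passed without replicate 4 (-0.37, limma adjusted p = 0.0204), and also without the replicate block (limma adjusted p = 0.0449), with batch as the block (0.0388), in the deposited table (0.0254) and in Cy5 alone (0.0437).

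Of the synaptobrevin genes, Vamp1 passed the threshold and Vamp2 did not. Vamp1, the vesicle SNARE synaptobrevin 1, was at 1.86, 1.89, 1.82 and 1.78 on Nr4a1 arrays and at 2.12, 2.20, 2.20 and 2.11 on GFP arrays (probe A_52_P166694). It was 1.25-fold lower (-0.32 ± 0.06, limma adjusted p = 0.00296), with no overlap. Vamp2, the major synaptobrevin of forebrain terminals, was at 3.60, 3.50, 3.60 and 3.61 on Nr4a1 arrays and at 3.85, 3.77, 3.84 and 3.47 on GFP arrays. GFP replicate 4 lies below the other GFP arrays, and the Vamp2 difference of -0.15 ± 0.08 missed the threshold (limma adjusted p = 0.179). Without replicate 4 it was -0.25, with limma adjusted p = 0.0307. Stx1a, Cplx2 and Vamp1 were called under every further setting tried.

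The remaining 3 genes of this group did not pass. Napb, which encodes beta-SNAP, an adaptor that loads NSF onto spent SNARE complexes, was at 3.11, 3.13, 3.09 and 3.33 on Nr4a1 arrays and at 3.31, 3.26, 3.35 and 3.41 on GFP arrays. Its difference was -0.17 ± 0.06 (limma adjusted p = 0.0666), and its other probe differed by -0.28 ± 0.06, which passed the test by probe (limma adjusted p = 0.00813). Napb was called in 4 of 19 other settings. Nsf, the ATPase that takes SNARE complexes apart, differed by -0.02 ± 0.07 (limma adjusted p = 0.876). Snap25, the second plasma membrane SNARE, was at 1.59, 1.3, 1.38 and 1.51 on Nr4a1 arrays and at 1.35, 1.47, 1.49 and 1.41 on GFP arrays, a difference of 0.02 ± 0.08 (limma adjusted p = 0.883).

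The 250 bases before the annotated start of Stx1a and Cplx2 are shown because these are 2 of the lower genes that kept their call most often. They are RefSeq promoter sequences of GRCm38.p6, read 5′ to 3′ on the gene's strand, with capitals on any match to the motifs searched, which are spelled out further on. The Stx1a stretch (chr5:135023232-135023481, plus strand) holds a GC box, and the Cplx2 stretch (chr13:54302306-54302555, plus strand) holds none of the motifs.
Stx1a: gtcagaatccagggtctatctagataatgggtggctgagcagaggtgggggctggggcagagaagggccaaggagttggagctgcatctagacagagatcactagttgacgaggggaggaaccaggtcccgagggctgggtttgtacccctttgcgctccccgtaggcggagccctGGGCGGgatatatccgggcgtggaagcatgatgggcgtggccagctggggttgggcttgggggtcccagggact
Cplx2: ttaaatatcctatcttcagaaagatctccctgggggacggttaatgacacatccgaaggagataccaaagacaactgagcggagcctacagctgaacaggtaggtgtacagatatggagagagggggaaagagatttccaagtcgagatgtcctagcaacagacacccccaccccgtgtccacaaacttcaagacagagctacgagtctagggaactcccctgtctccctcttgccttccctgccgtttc

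Priming factors, calcium sensors and the small GTPase Rab3 moved both ways. Of 8 tested genes, 2 were higher, 2 were lower and 4 did not pass, with a median of -0.06. Unc13b, which encodes Munc13-2, a priming factor that opens syntaxin, had the largest size of difference among the 32 genes. It was at 3.23, 3.29, 3.11 and 3.38 on Nr4a1 arrays and at 2.42, 2.22, 2.45 and 2.32 on GFP arrays (probe A_55_P1987645). Each Nr4a1 array lay above each GFP array, and Unc13b was 1.87-fold higher (0.90 ± 0.08, limma adjusted p = 3.7e-05). Its difference ran from 0.66 to 1.02 over the 19 other settings and passed the threshold in 17 of them.

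Unc13a, which encodes Munc13-1, the main priming factor of excitatory terminals, differed the other way. It was at 1.06, 1.06, 1.23 and 0.96 on Nr4a1 arrays and at 1.29, 1.49, 1.50 and 1.09 on GFP arrays (probe A_55_P2017964). The ranges overlap, and replicate 4 is the lowest array of both groups, but Unc13a was lower in each pair (-0.26 ± 0.07, 1.2-fold lower, limma adjusted p = 0.0158). The call was lost without background subtraction (-0.19, limma adjusted p = 0.0525), with median centring (-0.22, 0.0749), without replicate 2 (-0.21, 0.0983) and without the pairs as a block (-0.26, 0.0655).

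The Unc13b promoter stretch (chr4:43058703-43058952, plus strand) is shown as that of the gene with the largest rise, with GC boxes in capitals, which read CCGCCC where the match is on the opposite strand.
Unc13b: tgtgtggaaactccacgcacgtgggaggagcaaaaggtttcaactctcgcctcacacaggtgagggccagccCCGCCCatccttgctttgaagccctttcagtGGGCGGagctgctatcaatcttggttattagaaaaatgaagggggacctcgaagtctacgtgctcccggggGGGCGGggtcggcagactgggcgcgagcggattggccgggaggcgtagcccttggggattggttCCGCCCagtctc

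Syt1, the fast calcium sensor of vesicle fusion, was at 6.01, 6.15, 6.04 and 6.29 on Nr4a1 arrays and at 6.43, 6.27, 6.43 and 6.35 on GFP arrays (probe A_55_P2058957). It was lower in 4 of 4 pairs, with overlapping ranges (-0.25 ± 0.08, 1.19-fold lower, limma adjusted p = 0.0371). The call was lost without background subtraction (-0.23), with Agilent's own ratio (-0.19), with an offset of 10 (-0.24), with median centring (-0.17), without replicate 1 (-0.19) and without replicate 3 (-0.20). Syt4, a synaptotagmin that does not bind calcium in the usual way and whose transcription follows activity, was at 5.10, 4.46, 4.86 and 5.12 on Nr4a1 arrays and at 4.88, 4.85, 4.82 and 4.91 on GFP arrays. Nr4a1 replicate 2 lies below the rest, and the difference was 0.02 ± 0.10 (limma adjusted p = 0.900). Doc2b, a high-affinity calcium sensor tied to spontaneous release, was at 5.39, 5.31, 5.19 and 5.38 on Nr4a1 arrays and at 5.20, 5.22, 5.21 and 3.97 on GFP arrays. Its difference of 0.42 ± 0.19 (limma adjusted p = 0.146) rests on GFP replicate 4, since it was 0.09 without replicate 4. The Syt2 probe, for the synaptotagmin of fast hindbrain and inhibitory terminals, was well above background on 0 of 4 Nr4a1 and 0 of 4 GFP arrays and was not tested.

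The Rab3 proteins, GTPases that bind RIM when vesicles dock, passed the test in 1 of 3 genes. Rab3c was at 7.01, 7.08, 6.92 and 6.87 on Nr4a1 arrays and at 6.71, 6.75, 6.83 and 6.69 on GFP arrays (probe A_55_P1956567). It was 1.17-fold higher without overlap (0.23 ± 0.06, limma adjusted p = 0.0275). The other 2 Rab3c probes differed by -0.02 ± 0.06 and -0.04 ± 0.07 and did not pass, and the mean over the 3 probes differed by 0.06. The call was also lost with Agilent's own ratio (0.11), with an offset of 10 (0.21), and without replicate 1 (0.20), replicate 2 (0.19) or replicate 4 (0.24). Rab3a, the main Rab3 of brain, was at 5.88, 5.80, 5.75 and 5.93 on Nr4a1 arrays and at 6.06, 5.97, 6.06 and 5.96 on GFP arrays. Its groups do not overlap, yet the difference of -0.17 ± 0.06 missed the threshold (limma adjusted p = 0.0800). Rab3a was called in 2 of 19 other settings. Rab3b was lower in 4 of 4 pairs with a difference of -0.13 ± 0.06 (limma adjusted p = 0.134).

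**Figure D2:**
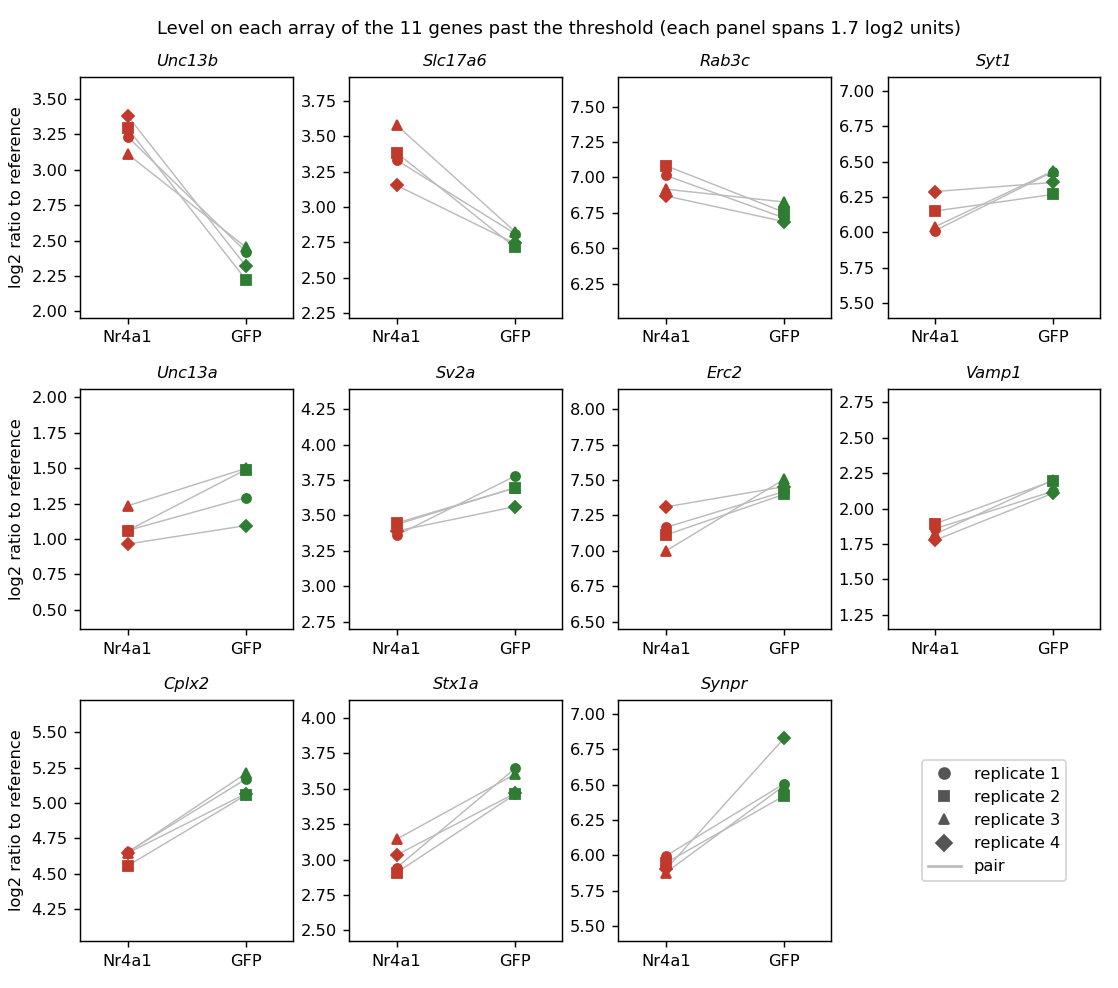
Level of the 11 presynaptic genes past the threshold on each array, as log2 ratio to the reference (y axis, each panel 1.7 log2 units high), with Nr4a1-labelled arrays at the left, GFP-labelled arrays at the right and lines joining the pairs. Every line falls to the right for Unc13b, Slc17a6 and Rab3c and climbs for the other 8 genes.

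Among the active zone scaffolds, 1 of 5 genes was lower and none higher, with a median of -0.04. Erc2 encodes CAST, a scaffold that binds RIM, Bassoon and Piccolo. It was at 7.17, 7.11, 7.00 and 7.31 on Nr4a1 arrays and at 7.42, 7.40, 7.51 and 7.45 on GFP arrays (probe A_55_P2026530). The groups do not overlap, and Erc2 was 1.23-fold lower (-0.30 ± 0.07, limma adjusted p = 0.0121). A second Erc2 probe differed by 0.02 ± 0.06 (limma adjusted p = 0.819), and the mean over both differed by -0.14. The call was also lost with Agilent's own ratio (-0.27), with median centring (-0.20) and in Cy5 alone (-0.20).

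The other scaffolds did not pass. Pclo, which encodes the giant scaffold Piccolo, was at 5.66, 5.66, 5.37 and 5.33 on Nr4a1 arrays and at 5.22, 5.12, 5.72 and 4.84 on GFP arrays. The pair of replicate 3 runs against the other pairs, and the difference was 0.28 ± 0.13 (limma adjusted p = 0.146). Without replicate 3 it was 0.49, with limma adjusted p = 0.00118. Its 3 other probes gave 0.38, -0.18 and -0.13, none past the threshold, so the Pclo probes differ in sign. Pclo passed with median centring (0.38) and in Cy5 alone (0.59), as did Doc2b (0.50 and 0.40). Bsn, the related scaffold Bassoon, differed by -0.15 ± 0.09 (limma adjusted p = 0.251), and it passed without replicate 4 (-0.28, limma adjusted p = 0.0249). The RIM genes Rims1 (0.02 ± 0.07) and Rims2 (-0.04 ± 0.06) lay close to 0, with limma adjusted p = 0.835 and 0.659.

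The Erc2 promoter stretch (chr14:27622157-27622406, plus strand) is shown because it holds the 6-base core that NR4A and other nuclear receptors read, in capitals.
Erc2: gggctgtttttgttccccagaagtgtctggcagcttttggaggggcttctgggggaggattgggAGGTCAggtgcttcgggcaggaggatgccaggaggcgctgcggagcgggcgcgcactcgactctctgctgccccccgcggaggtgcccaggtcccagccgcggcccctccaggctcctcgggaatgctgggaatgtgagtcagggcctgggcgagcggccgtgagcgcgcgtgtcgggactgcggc

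Among proteins of the vesicle membrane and the glutamate transporters, 2 of 11 tested genes were lower, 1 was higher and 8 did not pass, with a median of -0.10. Synpr encodes synaptoporin, a synaptophysin relative known from mossy fibre terminals of the hippocampus, and it had the largest fall of the 32 genes. It was at 6.00, 5.95, 5.88 and 5.90 on Nr4a1 arrays and at 6.51, 6.42, 6.49 and 6.83 on GFP arrays (probe A_55_P2088223). No array overlaps, and Synpr was 1.55-fold lower (-0.63 ± 0.08, limma adjusted p = 0.000364). Its second probe differed by -0.45 ± 0.12 (limma adjusted p = 0.0190 by probe). The reference channel of Synpr was not well above background on any of the 8 arrays, so its ratio rests on Cy5, where the difference was -0.81. With Agilent's own ratio the difference was -0.25 and did not pass.

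Slc17a6, which encodes the glutamate transporter VGLUT2, was at 3.33, 3.38, 3.58 and 3.15 on Nr4a1 arrays and at 2.81, 2.72, 2.83 and 2.74 on GFP arrays (probe A_52_P8197). Every Nr4a1 array lay above every GFP array, and the gene was 1.50-fold higher (0.59 ± 0.07, limma adjusted p = 0.000255). Its reference channel was well above background on 1 of 8 arrays, the difference in Cy5 alone was 0.68, and Agilent's own ratio gave 0.20 and no call. Slc17a7, which encodes VGLUT1, the main transporter of mature hippocampal excitatory terminals, differed by -0.10 ± 0.06 and was lower in 4 of 4 pairs without passing (limma adjusted p = 0.253).

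Sv2a encodes a vesicle glycoprotein that is the binding site of levetiracetam. It was at 3.36, 3.45, 3.44 and 3.39 on Nr4a1 arrays and at 3.78, 3.69, 3.70 and 3.56 on GFP arrays (probe A_52_P202142). The groups do not overlap, and Sv2a was 1.21-fold lower (-0.27 ± 0.06, limma adjusted p = 0.0105). The call was lost with Agilent's own ratio (-0.19) and with median centring (-0.23). Sv2b differed by -0.07 ± 0.07 (limma adjusted p = 0.469). Sv2c was well above background on 0 of 4 Nr4a1 and 0 of 4 GFP arrays with both its probes and was not tested.

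Apart from Synpr, the phosphoproteins and 4-pass membrane proteins of the vesicle, which are the usual markers of terminals, did not pass. The synapsins, which tether the reserve pool, differed by 0.0008 ± 0.08 for Syn1, -0.18 ± 0.07 for Syn2 and 0.12 ± 0.11 for Syn3 (limma adjusted p = 0.996, 0.0997 and 0.459). Syn3 was higher in 3 of 4 pairs and passed without replicate 1 (0.28, limma adjusted p = 0.0400). Syp, which encodes synaptophysin, was lower in 4 of 4 pairs by -0.13 ± 0.06 (limma adjusted p = 0.157). The synaptogyrins, relatives of synaptophysin, differed by -0.07 ± 0.10 for Syngr1 and -0.24 ± 0.08 for Syngr3 (limma adjusted p = 0.660 and 0.0620). Syngr3 was called in 7 of 19 other settings, among them Agilent's own ratio, the deposited table and the fit without replicate 2. Syn1, Syn2 and Syngr1 were each called in 1 of the 19. Syngr1 was at 4.23, 4.30, 4.30 and 4.49 on Nr4a1 arrays and at 3.87, 4.56, 4.60 and 4.56 on GFP arrays, with GFP replicate 1 low, and without replicate 1 the difference was -0.21.

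Promoter stretches of Synpr (chr14:13284530-13284779, plus strand) and Slc17a6 (chr7:51621580-51621829, plus strand) are shown as those of the vesicle genes with the largest fall and the only rise, with GC boxes in capitals. RefSeq gives each gene a second start, which is not printed.
Synpr: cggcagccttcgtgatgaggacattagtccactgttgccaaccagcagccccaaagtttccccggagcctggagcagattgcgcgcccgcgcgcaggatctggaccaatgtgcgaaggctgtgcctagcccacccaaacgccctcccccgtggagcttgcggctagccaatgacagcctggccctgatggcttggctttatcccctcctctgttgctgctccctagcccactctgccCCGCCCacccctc
Slc17a6: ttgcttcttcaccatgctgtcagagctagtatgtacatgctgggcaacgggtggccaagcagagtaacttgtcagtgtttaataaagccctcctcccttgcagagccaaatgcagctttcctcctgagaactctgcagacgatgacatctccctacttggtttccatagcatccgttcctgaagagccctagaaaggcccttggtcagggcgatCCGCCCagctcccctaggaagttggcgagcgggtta

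Paralogs of 1 family were compared by the difference of their differences over arrays, in 14 pairs of genes (exact permutation test, 4 against 4 arrays, 2-sided). Labels were exchanged freely over all 8 arrays, so this test ignored batch and the pairs that the limma fit blocks on. The smallest p this unpaired test allows is 0.0286, and 6 pairs of genes reached it, at 0.0667 after adjustment over the 14, so none passed. Exchange within pairs only would allow fewer arrangements and thus a larger smallest p. Unc13a minus Unc13b gave -1.16, and Slc17a6 minus Slc17a7 gave 0.69. Cplx1 minus Cplx2 gave 0.23 and Syn1 minus Syn2 gave 0.18. Rab3a minus Rab3c gave -0.40 and Rab3b minus Rab3c gave -0.36, both with the Rab3c probe whose other probes lie near 0. Each of these 6 had 1 sign in all 4 pairs of arrays, as did Sv2a minus Sv2b (-0.20) and Vamp1 minus Vamp2 (-0.17), whose p was larger. The Munc13 pair alone stayed at the smallest p in every setting tried for it that kept all 8 arrays. The other 8 comparisons had p from 0.114 to 0.657, which does not show that those paralogs act alike.

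**Figure D3:**
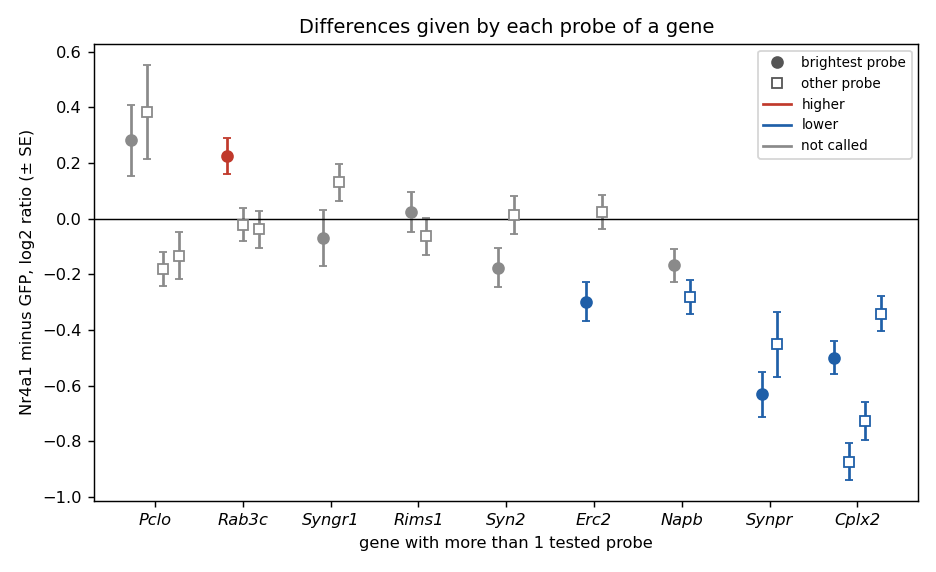
Difference between Nr4a1-labelled and GFP-labelled arrays (y axis, log2 ratio ± limma SE) for each tested probe of the 9 presynaptic genes with more than 1 tested probe; filled circles are the brightest probe, which stands for the gene, and open squares the others. The 4 Cplx2 probes and the 2 Synpr probes all lie below 0, whereas the other probes of Rab3c and Erc2 lie near 0 and those of Pclo fall on both sides.

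The reference RNA is a mix of mouse RNA not made from these cultures. Read by the probe that stands for each gene, all 32 tested genes lay above it on all 8 arrays (0.78 to 7.51, log2). That probe was chosen as the brightest in Cy5. Some other tested probes, of Rab3c, Pclo and Syngr1, lay below the reference on all 8 arrays. The reference channel was well above background on all 8 arrays for 26 genes and on fewer for Synpr, Slc17a6, Rims2, Syt4, Unc13a and Rims1. By probe, 23.8% of 25783 tested probes were called over the whole array.

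The promoters were searched on both strands from 250 bases before to 50 bases after each RefSeq start, in 36 windows of 27 of the 34 genes, and in 32851 windows of 27025 genes in all. NR4A receptors bind as monomers to the NBRE element, spelled AAAGGTCA, which contains the 6-base nuclear receptor core AGGTCA. The NBRE letters were found in 0 of 36 windows of the presynaptic genes and in 1.51% of all windows. The core was found in 4 of 36 windows (11.1%), namely those of Erc2, Syt1, Syngr1 and Syt2, and in 16.3% of all. The cAMP response element TGACGTCA was found in 1 window, that of Syn1 (2.78%), and in 1.79% of all. These matches describe letters in a window and not binding.

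The GC box, spelled GGGCGG and bound by Sp1-like factors, was in 23 of 36 windows of presynaptic genes (63.9%) and in 35.7% of all. The median GC content was 61.7% in the presynaptic windows and 52.7% in all windows. Genes lower in Nr4a1 held it in 7 of 10 windows and genes higher in 3 of 4, and the printed stretches of Stx1a, Unc13b, Synpr and Slc17a6 show it. All stretches printed come from RefSeq's tables and not from the arrays.

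The wider release pathway was read from 5 lists of other genes, 127 in all with 121 tested. Of these, 19 were lower, 10 higher and 92 not past the threshold (15.7% and 8.26%), with a median of -0.04. In either direction 24% were called, beside 24.4% over all features (11.5% lower and 12.8% higher). By list the share was 52.4% in the synaptotagmin and Rab effector list and 16.7% to 19.2% in the others. Other synaptotagmins, calcium sensors, priming factors and Rab effectors had 8 of 21 lower and 3 higher, with a median of -0.11. Doc2a, the paralog of Doc2b, was at 2.73 ± 0.07 in Nr4a1-labelled samples and 3.50 ± 0.18 in GFP-labelled samples (SD, n = 4 each). Its difference was -0.77 ± 0.06 (SE, limma adjusted p = 2.7e-05). Syt17 was at 1.12 ± 0.17 in Nr4a1 and 1.95 ± 0.11 in GFP (SD), a difference of -0.83 ± 0.06 (SE, limma adjusted p = 1.7e-05). Rab27b, a GTPase of secretory vesicles, differed by -0.74 ± 0.08, and Rab3ip, an exchange factor that acts on Rab8 and binds Rab3, by 0.51 ± 0.06 (limma adjusted p = 0.000197 and 0.000235). All 4 of these genes lay in 1 direction in 4 of 4 pairs and lost their call only in the 2 settings that end all calls.

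Other SNAREs and SM proteins had 3 of 27 lower and 2 higher, with a median of -0.03. Stxbp5l, which encodes a tomosyn that blocks SNARE assembly, differed by -0.54 ± 0.14 and was lower in 3 of 4 pairs. The SM protein gene Stxbp3 and the trafficking syntaxin Stx16 were each higher by 0.23 ± 0.06. These 3 calls were lost in 9, 9 and 6 of 19 settings for Stxbp5l, Stxbp3 and Stx16.

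Other active zone proteins had 2 of 17 lower and 1 higher, with a median of -0.09. The liprin genes Ppfia2 (-0.23 ± 0.07) and Ppfibp1 (-0.35 ± 0.06) were lower and Ppfia1 (0.38 ± 0.07) was higher. The Ppfia2 call was lost in 11 of 19 settings. Other vesicle proteins, transporters and proton pump subunits had 3 of 26 lower and 2 higher, with a median of -0.05. Sncb, which encodes beta-synuclein, differed by -0.56 ± 0.07, the vesicular zinc transporter gene Slc30a3 by -0.32 ± 0.06 and the proton pump subunit gene Atp6v1e1 by -0.32 ± 0.06, while Scamp1, a carrier membrane protein gene, was higher by 0.31 ± 0.07.

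Genes of vesicle endocytosis, which retrieve membrane after release, had 3 of 30 lower and 2 higher, with a median of 0.04. Clathrin heavy chain (Cltc) was higher by 0.43 ± 0.09. The adaptor gene Eps15 (-0.38 ± 0.07), the lipid phosphatase gene Synj2 (-0.37 ± 0.09) and Fcho1 (-0.24 ± 0.06), which starts clathrin pits, were lower. Dynamins, amphiphysin and endophilins are among the 25 that did not pass. Of the 19 other settings, Fcho1 was called in 12, Synj2 and Atp6v1e1 in 15 each, and Sncb, Slc30a3 and Eps15 in 16 each.

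**Figure D4:**
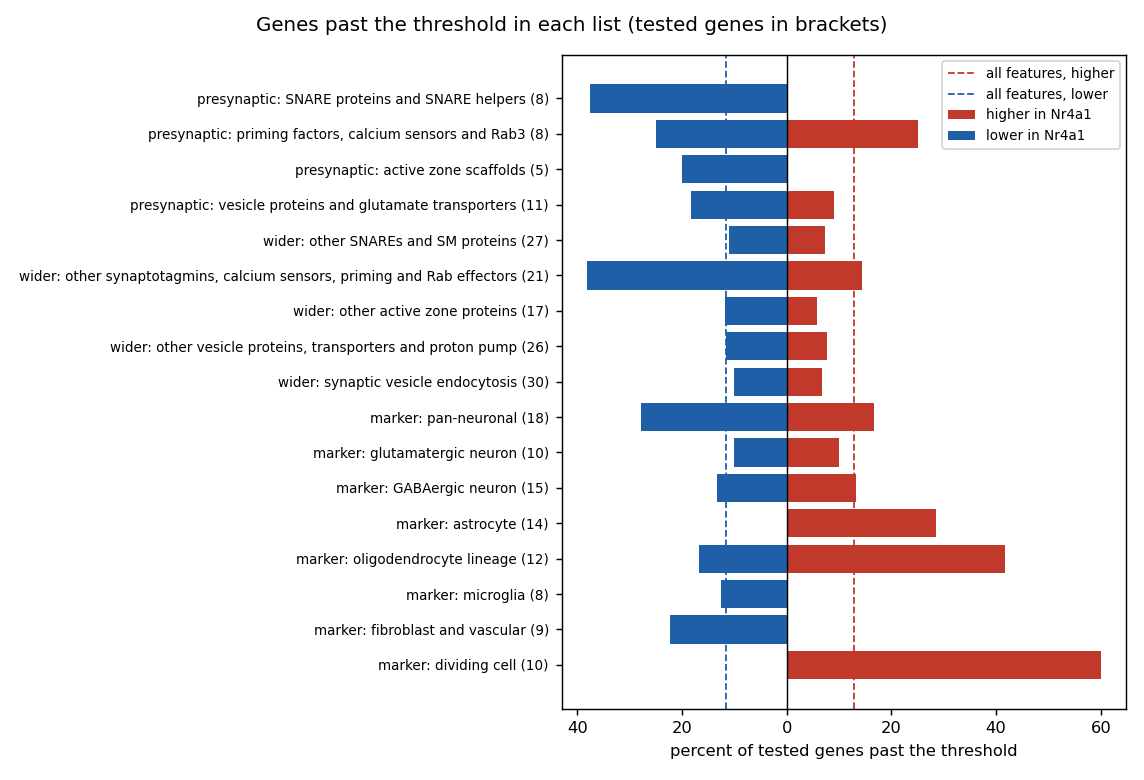
Percent of tested genes past the limma threshold in each list (x axis, lower in Nr4a1 to the left and higher to the right; the number tested in brackets), with dashed lines at the shares over all features, 11.5% lower and 12.8% higher. Presynaptic SNARE proteins reach 37.5% lower and 0% higher, and markers of dividing cells 60% higher.

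Markers of the cell types that such cultures can hold were read in the same way. Over all features 24.4% were called in either direction, against 44.4% of pan-neuronal, 20% of glutamatergic and 26.7% of GABAergic markers. Pan-neuronal markers had 5 of 18 lower and 3 higher with a median of -0.16, and their mean level was 4.11 to 4.29 on Nr4a1 arrays and 4.22 to 4.34 on GFP arrays. Thy1, Nrgn, Mapt, Nefh and Uchl1 were lower and Nefm, Eno2 and Celf4 higher. Glutamatergic markers had 1 of 10 lower and 1 higher (3.37 to 3.64 on Nr4a1 arrays, 3.49 to 3.66 on GFP arrays), and GABAergic markers 2 of 15 lower and 2 higher (2.70 to 2.79 on Nr4a1 arrays, 2.70 to 2.90 on GFP arrays). The mean of each of these 3 neuronal lists stood above the reference on all 8 arrays, though single genes such as Dlx2 lay below it.

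Astrocyte markers, at 3.10 to 3.21 on Nr4a1 arrays and 3.03 to 3.16 on GFP arrays, had 4 of 14 higher and none lower, and their mean lay above the reference on all 8 arrays. Oligodendrocyte lineage markers had 5 of 12 higher and 2 lower (0.94 to 0.99 on Nr4a1 arrays, 0.73 to 0.86 on GFP arrays). Markers of dividing cells had 6 of 10 higher and none lower (-3.42 to -3.27 on Nr4a1 arrays, -3.84 to -3.63 on GFP arrays). Microglial markers had 1 of 8 lower and none higher (-2.04 to -1.91 on Nr4a1 arrays, -1.91 to -1.82 on GFP arrays), with Cx3cr1, C1qa, C1qc, P2ry12 and Cd68 not tested. Fibroblast and vascular markers had 2 of 9 lower and none higher (-3.11 to -3.05 on Nr4a1 arrays, -2.95 to -2.87 on GFP arrays). In either direction 28.6% of astrocyte, 58.3% of oligodendrocyte lineage and 60% of dividing cell markers were called, beside 24.4% over all features. For microglial markers it was 12.5%, and for fibroblast and vascular markers 22.2%. The part of these cell types in the presynaptic differences was not tested.

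**Figure D5:**
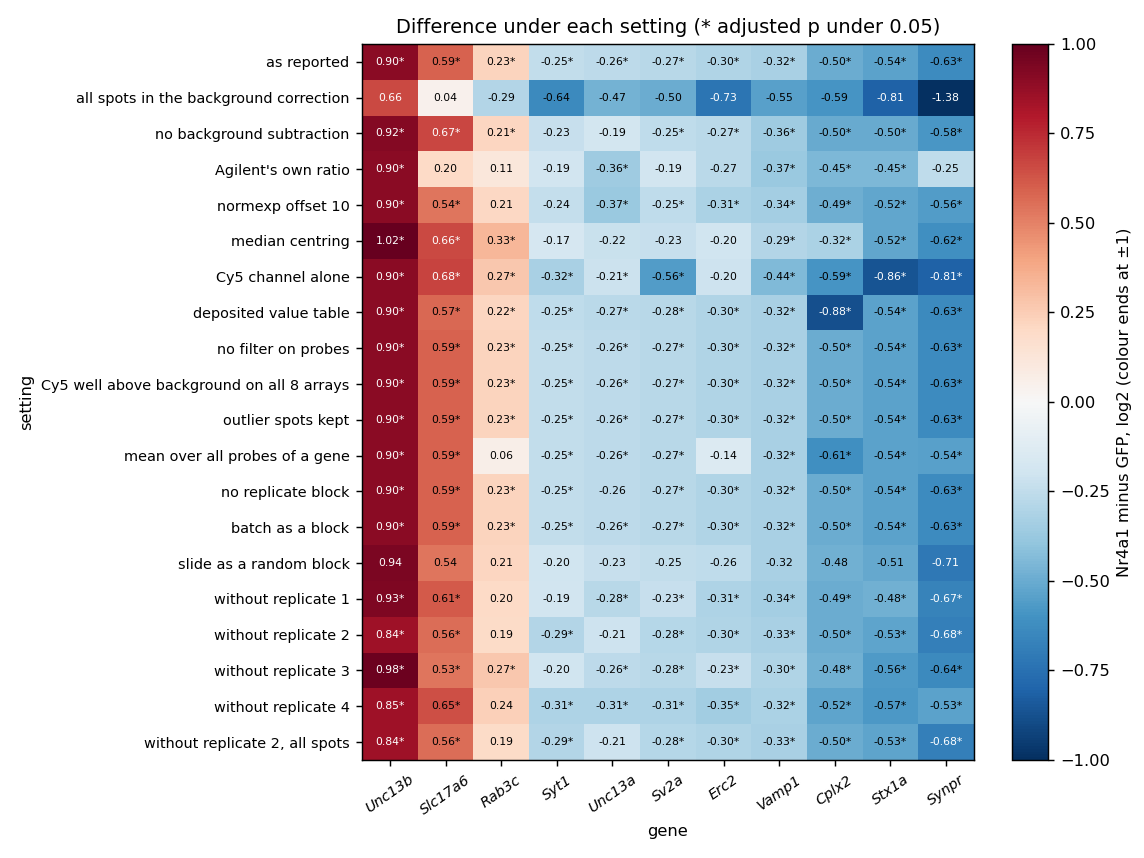
Difference between Nr4a1-labelled and GFP-labelled arrays (number and colour, log2) for the 11 presynaptic genes past the threshold, as reported and under 19 other settings, 1 per row; asterisks mark limma adjusted p under 0.05. Unc13b, Vamp1, Cplx2 and Stx1a lack an asterisk only in the row that keeps all spots and in the row that blocks on slide, and Rab3c alone changes sign, at -0.29 with all spots.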

How the data were processed

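RNA of 8 samples of cultured neurons (4 Nr4a1, 4 GFP) was hybridised in Cy5 against a common reference in Cy3 on 2-colour Agilent arrays, with no dye swap. Per the file headers, spots were read by version 11.0.1.1 of Agilent Feature Extraction, whose output holds median signal and background intensity values on a linear scale. They also hold a log10 ratio of processed signals, computed by that software in the deposited files. The value table the authors deposited holds log2 ratios of 24275 probes. It states no scale, centring or direction and was read as log2 Cy5 over Cy3 because its columns correlated with the values computed here at 0.998 to 1.00, with medians of 0.0240 to 0.0312. Per the submitters' processing notes, Feature Extraction and limma were used.

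Here, spots of non-uniform background were left out, normexp with an offset of 50 was followed by loess within arrays, outlier spots were dropped and spots of a probe were averaged. Probes entered the test when at least 4 of 8 arrays had Cy5 well above background and each group had 3 values. RefSeq GRCm38.p6 tables named 26581 of 39429 probes, and the brightest probe stood for a gene. Differences were tested with limma 3.58.1 (R 4.3.3), pairs as a fixed block, with p-values adjusted by Benjamini-Hochberg over every feature. The labels' pair tag is the ground for the block, and deviations within pairs correlated at -0.10, 0.28, -0.017 and 0.42. The scripts were tested on simulated data. The members and lists were chosen with earlier results of these data known. All members are named, and of each wider list up to 4 genes past the threshold of smallest p (1 such gene is not reported here), while marker genes were picked for naming with their values in view. Alternatives covered background, normalisation, filters, probes, blocks and each replicate left out.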

Additional observations from a re-analysis of the deposited data

Results flagged for a closer look

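Among 66 sets of 4 arrays (the 32 tested genes and Nr4a1, under each label), 5 had 1 array far from the other 3 by Dixon's criterion, which chance alone meets in about 1 of 20 sets. Vamp2 was at 3.50 on Nr4a1 replicate 2, with the other Nr4a1 arrays at 3.60 to 3.61. Cplx2 was at 4.56 on the same array, with the others at 4.65. Napb was at 3.33 on Nr4a1 replicate 4, with the others at 3.09 to 3.13. Doc2b was at 3.97 on GFP replicate 4, against 5.20 to 5.22 on the other GFP arrays. Syngr1 was at 3.87 on GFP replicate 1, against 4.56 to 4.60. Cplx2 kept its call without replicate 2, and the other 4 genes had no call.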

How the results depend on the processing

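With all spots in the background correction, 128 features were higher and 97 lower, 0 presynaptic genes were higher and 0 lower with a median of -0.38, and 0 genes of the wider lists passed in either direction. An alternative chosen after seeing the data joined all spots with leaving out replicate 2, and gave 2 presynaptic genes higher and 8 lower, as did leaving out replicate 2 alone. In both fits 9.1% of all features were higher and 7.75% lower. With slide as a random block (correlation 0.863), 8 features were higher and 4 lower, with 0 and 0 presynaptic genes and 0 and 0 wider genes. Agilent's own ratio gave 1509 and 1350 features (7.15% and 6.39%), 1 presynaptic gene higher, and 6 and 9 wider genes. Median centring gave 1262 lower features and 73.3% of calls higher, against 52.7% as reported, with 5 presynaptic genes higher and 4 lower and a median of all features of 0.06. With that setting 16.4% of all features were higher and 5.98% lower. Cy5 alone gave 6 and 14 presynaptic genes and 16 wider genes higher, beside 14.9% of all features higher and 14.1% lower. The deposited table gave 16 and 30 wider genes, beside 18.3% of all features higher and 17.8% lower. Batch as a block gave 3 presynaptic genes higher and 12 lower, beside 14.2% and 13% of all features. Without the replicate block, 3 presynaptic genes were higher and 8 lower, beside 11.1% and 10% of all features. There Unc13a (limma adjusted p = 0.0655) was lost and Cplx1 (limma adjusted p = 0.0449) gained, and pairing changed no other presynaptic call. Leaving out a replicate gave 1783 to 2601 features higher. Apart from Rab3c, which was -0.29 with all spots, signs turned only in genes without a call. With all spots these were Snap25 (-0.0198), Doc2b (-0.11), Syt4 (-0.56), Pclo (-0.34), Rims1 (-0.17), Syn1 (-0.059) and Syn3 (-0.26). With Agilent's ratio they were Syt4 (-0.19), Pclo (-0.17), Rims1 (-0.31), Syn3 (-0.0189) and Syngr1 (0.0838). Median centring turned Nsf (0.0861) and Sv2b (0.0097), and Cy5 alone turned Nsf (0.17), Sv2b (0.12) and Syp (0.0053). Without background subtraction Rims1 was -0.045 and Syn1 -0.0021, and with an offset of 10 Syt4 was -0.13 and Syn1 -0.0026. The table gave -0.0693 for Rims1 and -0.0018 for Syn1, and the mean over probes -0.0192 for Rims1 and 0.0304 for Syngr1. The alternative with all spots and without replicate 2 gave 0.0356 for Nsf and -0.0037 for Syn1. Leaving out a replicate gave -0.0568 to 0.0806 for Snap25, -0.0592 to 0.0357 for Nsf, -0.0452 to 0.16 for Syt4, -0.052 to 0.0717 for Rims1, -0.0789 to 0.0054 for Rims2, -0.0766 to 0.0881 for Syn1 and -0.21 to 0.0082 for Syngr1. The cause of these changes was not tested. Leaving out replicate 2 took out both arrays of its pair, with 37 (Nr4a1) and 10 (GFP) spots of non-uniform local background. Signal over background was low for the reference channel of Synpr (well above background on 0 of 8 arrays) and of Slc17a6 (1 of 8).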
